A study of Mus musculus with 18 samples.

Results

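Cultured mouse cortical astrocytes that carried a Gq-coupled designer receptor were set directly against cells that carried a Gs-coupled one, 90 min after both received the same ligand. The comparison takes the 3 libraries labelled hM3Dq and the 3 labelled rM3Ds, 6 of the 18 libraries of the series. Each gene that differed between them was then placed by its level in the 3 control libraries with EGFP, to separate genes that stood higher or lower with one receptor from those that did so with the other. The study stimulates designer receptors (DREADDs) in astrocytes in culture and reads their RNA. The hM3Dq cells carried a plasmid for a modified human M3 muscarinic receptor. The rM3Ds cells carried one for a modified rat M3 receptor, and the control cells one for the fluorescent protein EGFP. Every group, EGFP included, received 8 µM deschloroclozapine (DCZ) for 90 min, 7 days after plasmid transfection, so an effect of the ligand alone is present in all of them. Receptor cells without DCZ were not among the groups, so an effect of the receptor's presence and of its stimulation cannot be told apart. The labels give no promoter for the plasmids and no share of transfected cells, and in bulk RNA more responding cells and more RNA per cell cannot be told apart.

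Gq activates phospholipase C, which makes inositol trisphosphate and diacylglycerol, releases calcium from internal stores and activates protein kinase C. Gs activates adenylyl cyclase, which makes cyclic AMP (cAMP), and protein kinase A then phosphorylates the transcription factor CREB. Both routes can reach the fast-responding promoters of immediate-early genes, and both are used by astrocytes to answer neurotransmitters such as noradrenaline.

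The libraries held 16.6 to 20.1 M counts with hM3Dq, 16.1 to 17.7 M with rM3Ds and 17.2 to 21.5 M with EGFP. Values below are normalised counts scaled to library size (CPM), and a log2 fold change is hM3Dq over rM3Ds unless another pair is named. The libraries rM3Ds 2, rM3Ds 3 and EGFP 1 stood apart from the other 9 at this time on the first principal component, which held 52.5% of the variance. Summed over 33 cell cycle genes they had 838, 805 and 1261 CPM, while the hM3Dq libraries had 263 to 337 CPM, rM3Ds 1 had 272 CPM and the other EGFP libraries had 289.7 and 269 CPM. All 3 hM3Dq libraries therefore lay on the low side of that split and 2 of the 3 rM3Ds libraries on the high side, so the value without these 3 libraries, which leaves a single rM3Ds library, is given where it ended the call of a gene described here. Whether a library carried its receptor could not be read from Chrm3, the mouse gene of the M3 receptor, which had 12.4, 9.98 and 10.2 CPM in the hM3Dq libraries, 22.7, 11.1 and 6.97 CPM in the rM3Ds libraries and 1.797, 6.29 and 10.1 CPM in the EGFP libraries, since reads of a human or rat receptor may or may not be counted there.

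The labelled cell type was checked against its markers. All 14 astrocyte markers searched were in the table, and their summed level was 1033 to 1142 CPM with hM3Dq, 1221 to 1312 CPM with rM3Ds and 705 to 1221 CPM with EGFP. Gfap, the intermediate filament protein of astrocytes, was low, at 2.19 to 2.64 CPM with hM3Dq, 3.97 to 10.3 CPM with rM3Ds and 2.02 to 22.8 CPM with EGFP, and did not pass the test, at -1.63 ± 1.00 (SE, edgeR adjusted p = 0.473). Markers of other cells were present too. The 12 fibroblast and mural cell markers summed to 2513 to 3191 CPM with hM3Dq, 2134 to 3109.6 CPM with rM3Ds and 2357 to 3029.9 CPM with EGFP. The 10 oligodendrocyte lineage markers summed to 101 to 103 CPM, 102 to 121 CPM and 98.2 to 114 CPM in the same groups, the 14 neuronal markers to 147 to 159 CPM, 139 to 229 CPM and 154 to 239 CPM, and the 12 microglial markers to 219.6 to 245 CPM, 202 to 256 CPM and 174 to 267 CPM. No marker was at 0 in all 9 libraries, but 5 of the 12 microglial markers and 2 of the 14 neuronal markers had at most 3 counts in each of them. By edgeR none of the markers of these 5 lists was called, while DESeq2 called the astrocyte markers S100b and Glul and the oligodendrocyte precursor marker Pdgfra lower with hM3Dq. S100b, a calcium-binding protein, had 2.59, 2.31 and 3.88 CPM in the hM3Dq libraries, 3.28, 96.2 and 87.1 CPM in the rM3Ds libraries and 8.18, 2.42 and 1.86 CPM in the EGFP libraries (edgeR adjusted p = 0.0931), so it was high in rM3Ds 2 and rM3Ds 3 and not in rM3Ds 1. Endothelial markers are given with Flt1.

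By edgeR's test few genes differed between Gq-coupled and Gs-coupled cells, and more were called higher than lower with the Gq receptor. Of 13584 genes tested, 77 were higher with hM3Dq than with rM3Ds, or 0.567%, and 14 were lower, or 0.103%, at a Benjamini-Hochberg adjusted p below 0.05 in edgeR's quasi-likelihood test, 0.67% in all. This balance was not general: at an unadjusted p below 0.05, 918 genes were higher and 1016 lower, DESeq2 called 260 higher and 203 lower, and without rM3Ds 1 edgeR called 278 higher and 312 lower. Where the mean log2 CPM reached 1, the 10 genes with hM3Dq furthest above rM3Ds were the fast-response genes Fosl1, Arc, Egr1, Atf3, Fosb and Nr4a3, the prostaglandin synthase gene Ptgs2, the phosphatase gene Dusp5, the receptor gene Flt1 and Mfap3l. The genes lower with hM3Dq than with rM3Ds were led by the chemokine gene Cxcl5, and the others differed less. Of the 77 higher genes, 44 differed by at least 2-fold, with a median log2 fold change of 1.13 and a range of 0.43 to 3.57, while 2 of the 14 lower genes did, with a median of -0.79 and a range of -3.17 to -0.40. In all 91 the 3 hM3Dq and 3 rM3Ds libraries did not overlap, which was so for 21.8% of all genes tested. Nothing in the labels says whether the 3 libraries of a group are separate cultures, and the p-values rest on their spread, part of which may be technical.

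The EGFP libraries placed nearly all of the higher genes on the Gq side. A gene was placed with hM3Dq where its distance from EGFP was at least 2 times that of rM3Ds, and the reverse. By this rule 67 of the 77 were placed as higher with hM3Dq. The rule is a ratio, and rM3Ds did not lie near EGFP in all of these 67: its log2 fold change over EGFP ranged from -0.96 for Nfatc2 to 1.46 for Fosb, and at an unadjusted p below 0.05 it was above EGFP in 19 and below it in 2. The median log2 fold change over EGFP was 1.10 for hM3Dq and -0.01 for rM3Ds, with rM3Ds above EGFP at 38 of the 77 genes and below it at 39. Of the 77, 60 also passed the test of hM3Dq against EGFP, which called 103 genes higher, or 0.758%, and 4 lower, or 0.0294%, together 0.788%. With the replicate number as a block, hM3Dq against EGFP called 66 higher and 0 lower, 44 of the 77 among them. A single one, Nr4a2, passed that of rM3Ds against EGFP, which called 2 genes in all, Nr4a2 and Vgf, or 0.0147%. Nr4a2 was also the 1 gene placed as higher with both receptors. In 8 genes the receptors lay on opposite sides of EGFP, neither 2 times as far from it as the other (Flt1, Pthlh, Mical2, Rab7b, Nrg1, Tspan5, Ak4 and Ttc7), and in 1, Dusp18, hM3Dq lay near EGFP and rM3Ds below it. All 3 comparisons share libraries, and the genes were chosen on their difference, so these placements are a description.

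**Figure D1:**
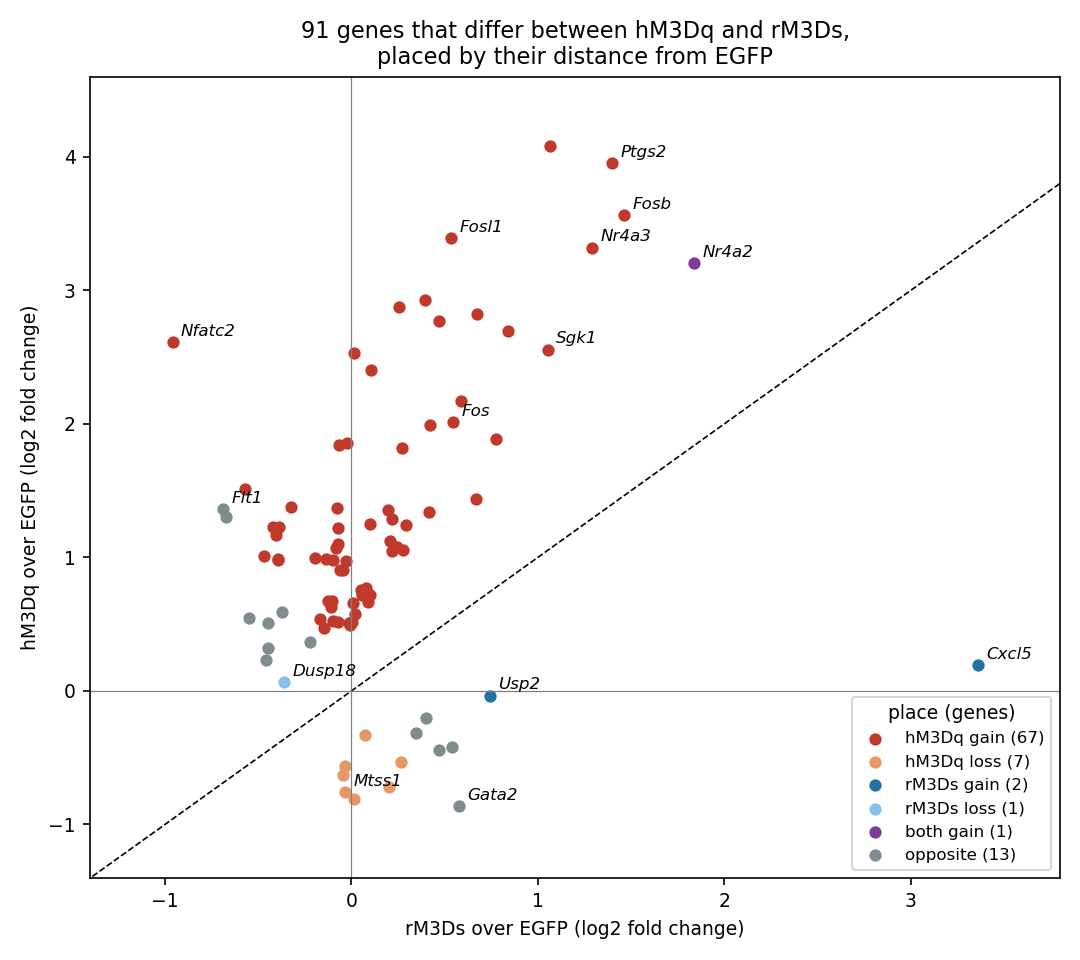
Log2 fold change over EGFP of the 91 genes that differed, with rM3Ds on the horizontal axis and hM3Dq on the vertical axis, coloured by placement (gain or loss against EGFP, opposite where the receptors lay on either side of it) and with a dashed line of equal values. The 77 higher genes stand above 0 on the vertical axis and spread around 0 on the horizontal one, and Cxcl5 stands alone at the right, at 3.36 for rM3Ds and 0.19 for hM3Dq.

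Immediate-early genes, which are transcribed without new protein synthesis, gave more called genes than any other of the 16 response lists. Of the 34 on the list, 13 were higher with hM3Dq and 0 lower, with 0 lower also at an unadjusted p below 0.05 and by DESeq2 and limma-voom. Its median log2 fold change was 0.73, against 0.01 over all genes tested, and 32 of the 34 were above 0. Against EGFP the median was 1.23 for hM3Dq and 0.39 for rM3Ds. The 13 were Fos, Fosb, Fosl1, Junb, Atf3, Egr1, Egr4, Nr4a1, Nr4a2, Nr4a3, Arc, Npas4 and Csrnp1. Leaving out any 1 of the 6 libraries other than rM3Ds 1 brought the count to between 6 and 8, and without the 3 libraries that stood apart it was 7.

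Fos and Jun family proteins pair to form the transcription factor AP-1, and 4 of them were higher with hM3Dq. Fosl1 (Entrez gene 14283) had 41.6, 46.5 and 36.5 CPM in the hM3Dq libraries, 5.53, 5.82 and 5.79 CPM in the rM3Ds libraries and 4.68, 3.49 and 3.63 CPM in the EGFP libraries. The hM3Dq libraries all stood far above the others, and the rM3Ds libraries only just above EGFP. The log2 fold change was 2.86 ± 0.16 (SE, edgeR adjusted p = 1.66e-05), a 7.26-fold difference. Fos (14281) had 53.3, 56.0 and 52.7 CPM in the hM3Dq libraries, 18.5, 21.3 and 18.9 CPM in the rM3Ds libraries and 10.0, 14.9 and 15.3 CPM in the EGFP libraries. The 3 groups did not overlap, in that order from high to low, at 1.46 ± 0.15 (SE, edgeR adjusted p = 0.00128). Fos with rM3Ds over EGFP, at 0.55, did not pass (edgeR adjusted p = 0.621). Fosb (14282) had 39.6, 34.97 and 34.5 CPM in the hM3Dq libraries, 10.6, 7.15 and 7.60 CPM in the rM3Ds libraries and 2.93, 2.86 and 3.40 CPM in the EGFP libraries. Here rM3Ds lay clearly above EGFP and hM3Dq well above both, at 2.10 ± 0.31 (SE, edgeR adjusted p = 0.0101), and against EGFP the values were 3.57 for hM3Dq and 1.46 for rM3Ds, of which that of hM3Dq passed the test (edgeR adjusted p = 0.000271) and that of rM3Ds did not (0.372). For Fosb, 4 of the 9 libraries, left out singly, each ended the call (hM3Dq 1, hM3Dq 2, rM3Ds 2, rM3Ds 3; adjusted p = 0.0529 to 0.0978). Without the 3 libraries apart Fosb was at 1.77 (edgeR adjusted p = 0.315). Junb was higher by 1.07 (edgeR adjusted p = 0.000533). Jun was not called, at 0.73 (edgeR adjusted p = 0.353), nor were Fosl2, at 0.58 (edgeR adjusted p = 0.198), and Jund, at -0.09 (edgeR adjusted p = 0.811).

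Atf3 (11910), a stress-induced factor of the ATF family, had 52.9, 59.9 and 51.8 CPM in the hM3Dq libraries, 12.03, 14.5 and 10.5 CPM in the rM3Ds libraries and 7.85, 8.01 and 7.38 CPM in the EGFP libraries. All hM3Dq libraries were several-fold above both other groups, with 2.15 ± 0.14 (SE, edgeR adjusted p = 5.60e-05). Egr1 (13653), a zinc finger factor induced through ERK signalling, had 56.4, 68.2 and 41.0 CPM in the hM3Dq libraries, 12.6, 12.2 and 8.84 CPM in the rM3Ds libraries and 16.7, 7.78 and 6.63 CPM in the EGFP libraries. EGFP 1 lay above all 3 rM3Ds libraries there, and the log2 fold change was 2.30 ± 0.42 (SE, edgeR adjusted p = 0.0396). Arc (11838), which in neurons takes part in synaptic plasticity, had 10.5, 13.6 and 10.9 CPM in the hM3Dq libraries, 2.57, 1.77 and 1.68 CPM in the rM3Ds libraries and 2.41, 1.201 and 0.922 CPM in the EGFP libraries, and differed by 2.53 ± 0.40 (SE, edgeR adjusted p = 0.0178). For Egr1, 6 of the 9 libraries, left out singly, each ended the call (hM3Dq 1, hM3Dq 2, hM3Dq 3, rM3Ds 2, rM3Ds 3, EGFP 2; adjusted p = 0.062 to 0.217). For Arc, 5 of the 9 libraries, left out singly, each ended the call (hM3Dq 1, hM3Dq 2, hM3Dq 3, rM3Ds 2, rM3Ds 3; adjusted p = 0.0642 to 0.152). Egr4 and Npas4, both at low levels, were higher by 3.02 (edgeR adjusted p = 0.0293) and 2.62 (edgeR adjusted p = 0.0184). The calls of Egr4 and Npas4 were lost when hM3Dq 1, hM3Dq 2, rM3Ds 2 and rM3Ds 3 were left out singly, and hM3Dq 3 left out singly ended 1 or more of them (edgeR adjusted p = 0.0723 to 0.181). With the 3 libraries that stood apart left out, Egr1, Arc, Egr4 and Npas4 were at 2.13, 2.18, 2.11 and 3.09 (edgeR adjusted p = 0.294, 0.153, 0.386 and 0.106). Egr2 and Egr3, of the same family as Egr1, were at 2.42 (edgeR adjusted p = 0.0575) and 2.97 (edgeR adjusted p = 0.174) and did not pass.

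The Nr4a orphan nuclear receptors, which respond to both calcium and cAMP, separated the receptors by degree. Nr4a1 (15370) had 487, 486 and 428 CPM in the hM3Dq libraries, 149, 168 and 153 CPM in the rM3Ds libraries and 144, 111 and 95.7 CPM in the EGFP libraries. With hM3Dq the level was well above that of the other groups, and rM3Ds stood above EGFP by less than the test could call, at 1.58 ± 0.15 (SE, edgeR adjusted p = 0.000784) between receptors and 2.00 for hM3Dq and 0.42 for rM3Ds over EGFP. Nr4a2 (18227) had 83.6, 64.2 and 71.7 CPM in the hM3Dq libraries, 25.7, 28.4 and 30.9 CPM in the rM3Ds libraries and 5.82, 9.55 and 8.47 CPM in the EGFP libraries. It was graded in 3 levels with no overlap, EGFP lowest, rM3Ds between and hM3Dq highest. Between receptors it differed by 1.37 ± 0.16 (SE, edgeR adjusted p = 0.00309), and over EGFP it rose by 3.21 with hM3Dq (edgeR adjusted p = 5.32e-06) and by 1.84 with rM3Ds (edgeR adjusted p = 0.00203). Nr4a3 (18124) had 359, 284 and 317 CPM in the hM3Dq libraries, 90.6, 71.7 and 72.8 CPM in the rM3Ds libraries and 12.9, 41.3 and 42.2 CPM in the EGFP libraries. The same order appeared, but EGFP 1 was lower than the other EGFP libraries, and rM3Ds over EGFP, at 1.29, did not pass (edgeR adjusted p = 0.614). The difference between receptors was 2.03 ± 0.35 (SE, edgeR adjusted p = 0.0298). With a term for the libraries that stood apart it was 1.37 (edgeR adjusted p = 0.0665), and 5 of the 9 libraries, left out singly, each ended the call (hM3Dq 1, hM3Dq 2, hM3Dq 3, rM3Ds 2, rM3Ds 3; adjusted p = 0.102 to 0.193).

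**Figure D2:**
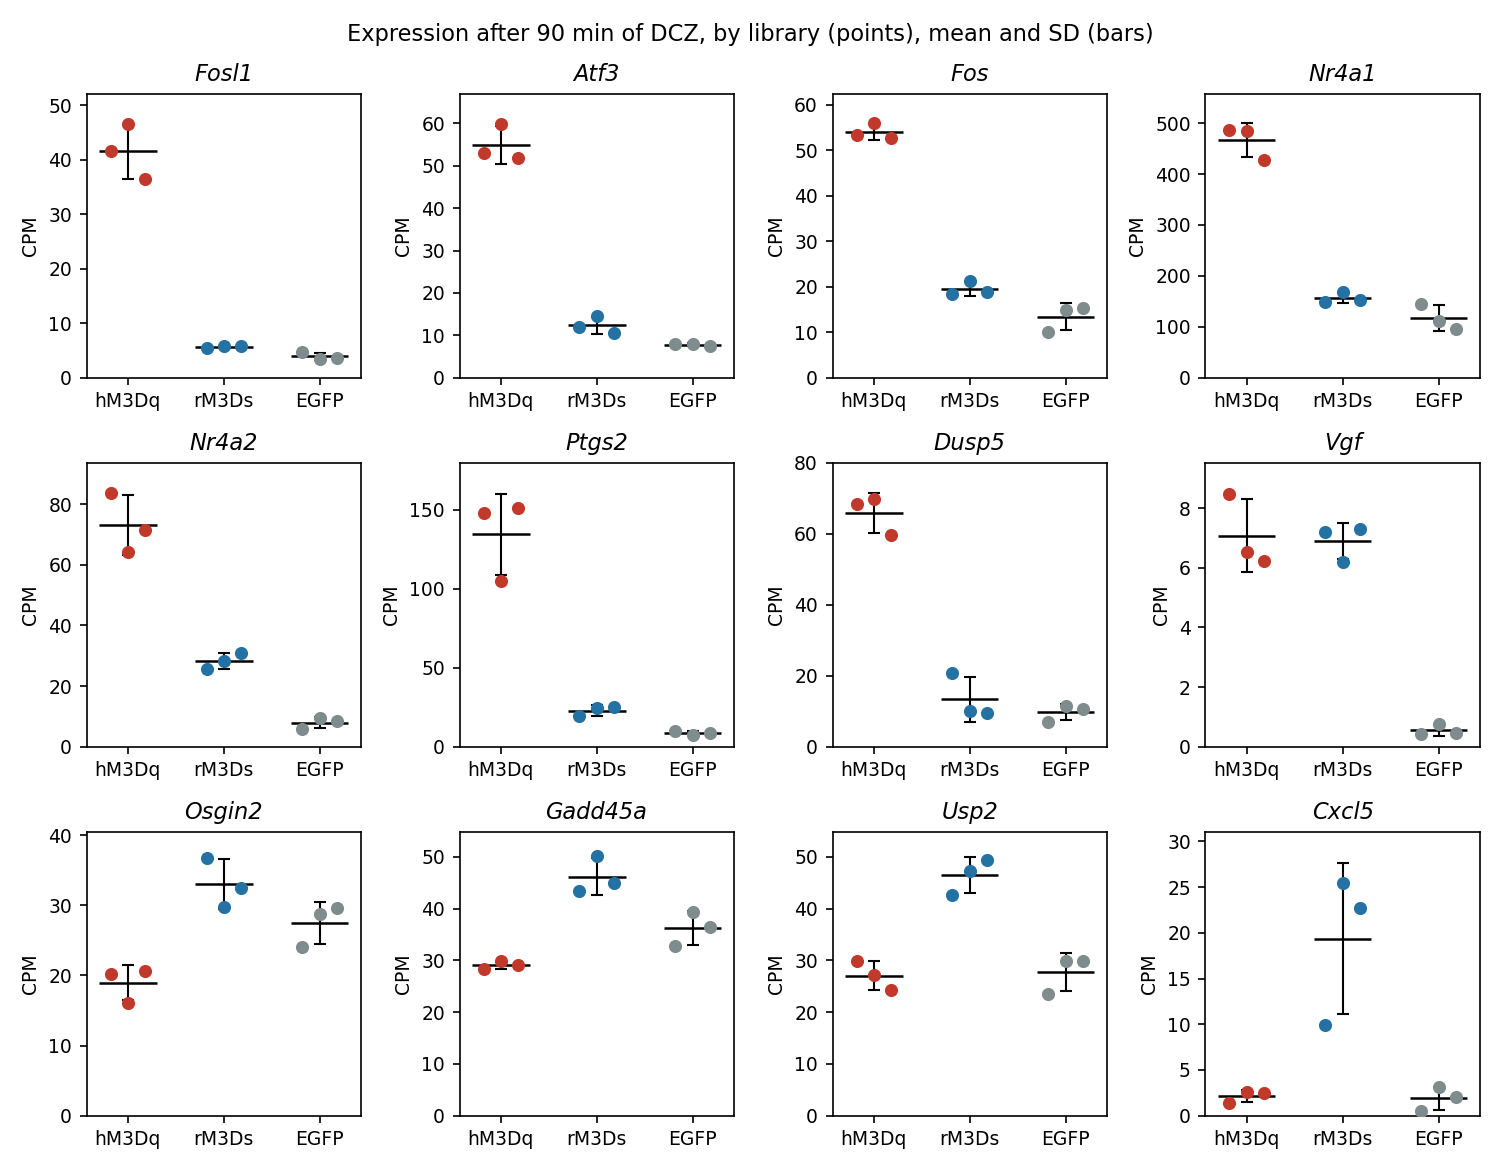
Normalised counts (CPM) of 12 genes in each hM3Dq, rM3Ds and EGFP library after 90 min of DCZ, as points, with the mean and SD of 3 libraries as bars. Fosl1, Atf3, Fos, Nr4a1, Nr4a2, Ptgs2 and Dusp5 are highest with hM3Dq, the receptors overlap at Vgf, and Osgin2, Gadd45a, Usp2 and Cxcl5 are highest with rM3Ds.

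Genes known to respond to cAMP through CREB, the route of Gs, gave calls in favour of the Gq receptor. Of the 21 tested members of a cAMP and CREB responsive list, 5 were higher with hM3Dq (Fosb, Nr4a1, Nr4a2, Nr4a3 and Pde10a) and 0 were higher with rM3Ds. At an unadjusted p below 0.05, 8 were higher and 1 lower with hM3Dq, by DESeq2 6 and 0, and by limma-voom 5 and 0. The list's median was a log2 fold change of 0.25 between receptors, and over EGFP it was 0.62 for hM3Dq and 0.38 for rM3Ds. The count was 2 or 3 without any 1 of hM3Dq 1, hM3Dq 2, hM3Dq 3, rM3Ds 2 and rM3Ds 3. The 4 called transcription factors are also on the immediate-early list. Pde10a, a phosphodiesterase that breaks down cAMP and cyclic GMP, was higher by 1.00 (edgeR adjusted p = 0.0397), and rM3Ds lay at EGFP, at -0.03. The call of Pde10a was lost when hM3Dq 1, hM3Dq 2, hM3Dq 3, rM3Ds 2, rM3Ds 3, EGFP 2 and EGFP 3 were left out singly (edgeR adjusted p = 0.0538 to 0.233). In the fit without the libraries that stood apart, Pde10a was at 0.94 (edgeR adjusted p = 0.0684).

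Vgf (381677), a neuropeptide precursor gene and a classic cAMP target, stood high with both receptors. It had 8.49, 6.53 and 6.21 CPM in the hM3Dq libraries, 7.19, 6.21 and 7.28 CPM in the rM3Ds libraries and 0.426, 0.744 and 0.461 CPM in the EGFP libraries. Every receptor library, rM3Ds 1 included, was far above every EGFP library, and the receptors overlapped. The difference between receptors was 0.04 ± 0.23 (SE, edgeR adjusted p = 0.956), with a 95% interval of -0.47 to 0.55. Over EGFP the log2 fold changes were 3.69 with hM3Dq (edgeR adjusted p = 5.18e-05) and 3.66 with rM3Ds (edgeR adjusted p = 0.000458). Crem, whose short product represses CREB targets, had 21.9, 20.6 and 21.9 CPM in the hM3Dq libraries, 25.6, 25.2 and 23.5 CPM in the rM3Ds libraries and 15.2, 16.8 and 17.2 CPM in the EGFP libraries. The rM3Ds libraries were all above the hM3Dq libraries, yet the difference of -0.21 ± 0.09 (SE, edgeR adjusted p = 0.353) did not pass the test, with an interval of -0.41 to 0.00. Rgs2, a Gq inhibitor induced by cAMP in other cells, had 17.97, 16.4 and 21.0 CPM in the hM3Dq libraries, 17.3, 29.0 and 26.4 CPM in the rM3Ds libraries and 8.99, 12.4 and 11.1 CPM in the EGFP libraries. Its receptors overlapped, and the difference was -0.39 ± 0.20 (SE, edgeR adjusted p = 0.389), with an interval of -0.83 to 0.04. Without the libraries that stood apart it was 0.09. Dio2, the deiodinase that activates thyroid hormone, was at -0.80 (edgeR adjusted p = 0.303).

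The promoters of 4 strongly responding higher genes and of 1 gene that stood higher with rM3Ds are shown because each holds the core letters of the cAMP response element, which CREB and ATF factors bind. The sequences are RefSeq's, build GRCm38.p6, from 250 bases before to 50 after the start, 5′ to 3′ on the gene's strand, with TGACGT or its reverse complement ACGTCA in capitals.
Fos, chr12:85473640-85473939, plus strand: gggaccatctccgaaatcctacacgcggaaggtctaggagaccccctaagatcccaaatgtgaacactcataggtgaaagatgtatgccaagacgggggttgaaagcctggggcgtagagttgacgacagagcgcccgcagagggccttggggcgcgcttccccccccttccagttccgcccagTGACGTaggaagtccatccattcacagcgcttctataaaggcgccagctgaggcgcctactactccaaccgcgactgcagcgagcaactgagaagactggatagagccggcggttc
Atf3, chr1:191183284-191183583, minus strand: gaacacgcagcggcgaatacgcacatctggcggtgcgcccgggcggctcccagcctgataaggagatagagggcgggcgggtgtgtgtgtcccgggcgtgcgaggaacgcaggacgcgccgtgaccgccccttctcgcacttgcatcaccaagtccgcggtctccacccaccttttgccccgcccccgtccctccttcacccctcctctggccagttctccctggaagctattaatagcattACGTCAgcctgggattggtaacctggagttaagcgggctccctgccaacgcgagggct
Ptgs2, chr1:150099781-150100080, plus strand: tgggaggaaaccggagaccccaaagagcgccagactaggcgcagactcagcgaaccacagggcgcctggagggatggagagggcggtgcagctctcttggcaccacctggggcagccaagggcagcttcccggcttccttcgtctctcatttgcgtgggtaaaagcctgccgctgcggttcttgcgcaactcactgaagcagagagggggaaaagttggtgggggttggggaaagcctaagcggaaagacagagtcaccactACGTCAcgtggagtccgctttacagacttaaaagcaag
Dusp5, chr19:53528895-53529194, plus strand: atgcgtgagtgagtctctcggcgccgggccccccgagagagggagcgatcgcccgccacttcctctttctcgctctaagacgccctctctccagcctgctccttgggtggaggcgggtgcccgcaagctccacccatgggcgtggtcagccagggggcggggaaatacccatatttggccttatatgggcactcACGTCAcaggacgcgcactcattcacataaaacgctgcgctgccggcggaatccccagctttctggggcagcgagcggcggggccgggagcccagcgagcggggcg
Usp2, chr9:44084670-44084969, plus strand: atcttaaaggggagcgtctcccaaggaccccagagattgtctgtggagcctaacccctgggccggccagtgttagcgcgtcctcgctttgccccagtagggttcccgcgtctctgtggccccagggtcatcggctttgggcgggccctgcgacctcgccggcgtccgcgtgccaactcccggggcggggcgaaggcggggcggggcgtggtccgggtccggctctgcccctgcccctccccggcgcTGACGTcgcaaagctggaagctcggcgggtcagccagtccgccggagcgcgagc
Each of the 5 holds 1 such match and no AP-1 match. The table had promoters for 71 of the 91 genes, 61 higher and 10 lower. TGACGT on either strand was in 14.4% of the 90 promoters of higher genes, in 6.67% of the 15 promoters of lower genes and in 10.9% of 13770 promoters of tested genes. The AP-1 letters TGANTCA, on either strand, were in 11.1% of promoters of higher genes, 6.67% of those of lower genes and 5.25% of those of tested genes. The NFAT core GGAAA, on either strand, was in 45 of the 90, 6 of the 15 and 58.5% in the same order. Over all 32851 promoters in the table the shares were 7.51%, 7.81% and 61.3% for the cAMP response element core, the AP-1 letters and the NFAT core. A promoter may hold both of the first 2 motifs, which was so for 131 of all promoters and for 0 of those of higher genes. These matches describe letters and are not binding sites.

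Calcium activates the phosphatase calcineurin, which moves NFAT factors into the nucleus. Of 12 tested NFAT factors and NFAT responsive genes, 3 were higher with hM3Dq (Nfatc2, Ptgs2 and Nr4a1) and 0 lower. At an unadjusted p below 0.05, 7 were higher and 1 lower, by DESeq2 7 and 0, and by limma-voom 4 and 0. The list's median was 0.88, and it stayed at 3 to 5 called genes without any 1 library. Of its called genes, Nr4a1 is also on the immediate-early and the cAMP and CREB lists, and Ptgs2 on the prostaglandin list. Ptgs2 (19225), which makes prostaglandins and is also called COX-2, had 148, 105 and 151 CPM in the hM3Dq libraries, 19.2, 24.3 and 25.2 CPM in the rM3Ds libraries and 9.89, 7.38 and 8.70 CPM in the EGFP libraries. Both receptors were above EGFP without overlap, the Gq receptor by far the most. It differed between receptors by 2.56 ± 0.25 (SE, edgeR adjusted p = 0.0011), a 5.88-fold difference. Over EGFP it differed by 3.96 for hM3Dq and 1.40 for rM3Ds, of which that of rM3Ds did not pass (edgeR adjusted p = 0.2). Nfatc2 (18019), which encodes an NFAT factor, was low in all groups, with 6.07, 6.96 and 5.80 CPM in the hM3Dq libraries, 0.684, 0.443 and 0.436 CPM in the rM3Ds libraries and 1.32, 0.744 and 0.980 CPM in the EGFP libraries, and differed by 3.57 ± 0.37 (SE, edgeR adjusted p = 0.00128). Its rM3Ds libraries were all below its EGFP libraries. When the libraries that stood apart were left out, Nfatc2 was at 3.18 (edgeR adjusted p = 0.0714). Rcan1, a calcineurin inhibitor that NFAT induces, was at -0.14 (edgeR adjusted p = 0.783), and the prostaglandin list held no called gene besides Ptgs2 among 11 tested.

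Genes that dampen ERK signalling changed in part. Of 20 tested, 3 were higher with hM3Dq (Dusp2, Dusp5 and Errfi1) and 0 lower, and the list's median was 0.09. At an unadjusted p below 0.05, 5 were higher and 1 lower, by DESeq2 4 and 0, and by limma-voom 3 and 0. Dusp5 (240672), a nuclear phosphatase that removes phosphate from ERK, had 68.5, 69.8 and 59.6 CPM in the hM3Dq libraries, 20.8, 9.92 and 9.53 CPM in the rM3Ds libraries and 7.09, 11.4 and 10.5 CPM in the EGFP libraries. The rM3Ds 1 library was higher than the other rM3Ds libraries but still well below the lowest hM3Dq value. The difference was 2.30 ± 0.28 (SE, edgeR adjusted p = 0.00337), and 1.67 without the libraries that stood apart. Errfi1, an inhibitor of the EGF receptor, had 167, 192 and 163 CPM in the hM3Dq libraries, 87.8, 46.5 and 39.4 CPM in the rM3Ds libraries and 27.1, 43.7 and 44.8 CPM in the EGFP libraries. There too rM3Ds 1 was the highest rM3Ds library, and the difference of 1.59 ± 0.28 (SE, edgeR adjusted p = 0.0328) was 0.98 without those libraries. The calls of Dusp2 and Errfi1 were lost when hM3Dq 1, hM3Dq 2, hM3Dq 3, rM3Ds 2, rM3Ds 3, EGFP 2 and EGFP 3 were left out singly (edgeR adjusted p = 0.0513 to 0.214). In the 9 libraries that did not stand apart, Dusp2 was at 1.87 (edgeR adjusted p = 0.593). Of these genes Dusp5 was called in all 9 fits that left out 1 library, and the count for the list was 1 in every such fit apart from those without rM3Ds 1 or EGFP 1, where it was 4. Dusp1 and Dusp6, of the same family, were at 0.20 (edgeR adjusted p = 0.857) and 0.07 (edgeR adjusted p = 0.966), and Spry2, an ERK pathway inhibitor, was at 0.87 (edgeR adjusted p = 0.0733).

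Genes for cytokines, growth factors and matrix proteins gave few calls. Itga5, the alpha subunit of a fibronectin receptor, had 196, 188 and 170.2 CPM in the hM3Dq libraries, 75.9, 86.0 and 85.7 CPM in the rM3Ds libraries and 72.7, 70.8 and 72.7 CPM in the EGFP libraries. Its rM3Ds and EGFP libraries stood close together, and the receptors differed by 1.16 ± 0.10 (SE, edgeR adjusted p = 0.000337). Clcf1, a cytokine of the IL-6 family that signals through the CNTF receptor, had 195, 210.2 and 179.8 CPM in the hM3Dq libraries, 74.5, 61.0 and 64.7 CPM in the rM3Ds libraries and 48.1, 59.0 and 58.7 CPM in the EGFP libraries, and it rose by 1.55 ± 0.11 (SE, edgeR adjusted p = 0.000123). No other of the 15 tested IL-6 family genes passed. Pdgfa, a growth factor for oligodendrocyte precursors, was higher by 0.52 (edgeR adjusted p = 0.0395), the 1 called gene of 29 growth and neurotrophic factors, of which 8 were higher and 4 lower at an unadjusted p below 0.05. Bdnf was at 0.68 (edgeR adjusted p = 0.58) and Hbegf at 0.51 (edgeR adjusted p = 0.214). The call of Pdgfa was lost when hM3Dq 1, hM3Dq 2, hM3Dq 3, rM3Ds 2, rM3Ds 3, EGFP 2 and EGFP 3 were left out singly (edgeR adjusted p = 0.0651 to 0.234). Leaving out the libraries that stood apart, Pdgfa was at 0.43 (edgeR adjusted p = 0.788).

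Flt1 (14254), a receptor for vascular endothelial growth factor and a marker of endothelial cells, had 21.5, 22.7 and 17.97 CPM in the hM3Dq libraries, 6.67, 4.27 and 4.05 CPM in the rM3Ds libraries and 9.89, 7.67 and 6.57 CPM in the EGFP libraries. The hM3Dq libraries were the highest and the rM3Ds libraries reached below EGFP, which placed the receptors on opposite sides of EGFP, at 2.05 ± 0.26 (SE, edgeR adjusted p = 0.00457) and with 1.36 for hM3Dq and -0.69 for rM3Ds over EGFP. That placement rested on rM3Ds 2 and rM3Ds 3, since rM3Ds 1 lay between the values of EGFP 2 and EGFP 3. Without rM3Ds 2, rM3Ds 3 and EGFP 1, Flt1 was at 1.63 (edgeR adjusted p = 0.106). The 10 endothelial markers, Flt1 among them, summed to 43.7, 45.1 and 45.9 CPM with hM3Dq, 29.7, 13.8 and 13.4 CPM with rM3Ds and 19.5, 35.7 and 33.4 CPM with EGFP, so the libraries that stood apart were the low ones. Of these sums, Flt1 itself made up 20.9, 22.2 and 17.6 CPM with hM3Dq. Its part was 6.73, 4.34 and 4.05 CPM with rM3Ds and 9.71, 7.73 and 6.64 CPM with EGFP. The other tested endothelial markers, Tek, Vwf and Erg, were at 1.22 (edgeR adjusted p = 0.411), 0.21 (edgeR adjusted p = 0.715) and -1.01 (edgeR adjusted p = 0.351). The part of endothelial cells in the difference of Flt1 was not tested. Mfap3l, which encodes a membrane protein, had 22.5, 19.1 and 23.9 CPM in the hM3Dq libraries, 7.87, 3.77 and 3.74 CPM in the rM3Ds libraries and 4.45, 9.44 and 9.05 CPM in the EGFP libraries. Its rM3Ds 2, rM3Ds 3 and EGFP 1 libraries were the 3 lowest, its difference was 2.09 ± 0.36 (SE, edgeR adjusted p = 0.0285), and it was 1.47 (edgeR adjusted p = 0.106) without them. The call of Mfap3l was lost when hM3Dq 1, hM3Dq 2, hM3Dq 3, rM3Ds 2 and rM3Ds 3 were left out singly (edgeR adjusted p = 0.0969 to 0.191).

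Other higher genes spanned kinases, metabolism and G protein control. Sgk1, a kinase that regulates ion channels, had 203, 221 and 201 CPM in the hM3Dq libraries, 72.5, 79.9 and 68.2 CPM in the rM3Ds libraries and 39.0, 34.7 and 32.4 CPM in the EGFP libraries. The 3 groups did not overlap, with rM3Ds between, and the receptors differed by 1.5 ± 0.19 (SE, edgeR adjusted p = 0.00457). Rgs17, a regulator that speeds the turn-off of G proteins, had 46.8, 47.8 and 45.9 CPM in the hM3Dq libraries, 10.8, 12.6 and 14.0 CPM in the rM3Ds libraries and 14.1, 11.5 and 13.5 CPM in the EGFP libraries. The difference between receptors was 1.91 ± 0.27 (SE, edgeR adjusted p = 0.0075), and without rM3Ds 2 its adjusted p was 0.0686. Pdk4, which restrains pyruvate entry into the mitochondrion, was higher by 1.65 (edgeR adjusted p = 0.00554) and was the 1 called gene of 26 glycolysis, glycogen and lactate genes, of which 4 were higher and 2 lower at an unadjusted p below 0.05. Hmox1, which breaks down haem, was higher by 1.18 (edgeR adjusted p = 0.0298), and Srxn1, which repairs oxidised peroxiredoxins, by 0.95 (edgeR adjusted p = 0.00377). P2ry2, a Gq-coupled receptor for ATP, was higher by 0.66 (edgeR adjusted p = 0.0375). Hmga1 and Hmga1b, at 1.13 (edgeR adjusted p = 0.0262) and 1.45 (edgeR adjusted p = 0.0212), are near-identical copies whose reads may be split between them, so their separate values are uncertain. Dusp18, with 84.0 ± 4.62 CPM with hM3Dq, 62.4 ± 5.61 CPM with rM3Ds and 80.1 ± 3.81 CPM with EGFP (SD, n = 3 each), was the gene whose placement rested on a low rM3Ds level, and its difference was the smallest of the 77, at 0.43 ± 0.08 (SE, edgeR adjusted p = 0.0473). The calls of Hmox1, P2ry2, Hmga1, Hmga1b and Dusp18 were lost when hM3Dq 1, hM3Dq 2, rM3Ds 2 and rM3Ds 3 were left out singly, and hM3Dq 3, EGFP 2 and EGFP 3 left out singly ended 1 or more of them (edgeR adjusted p = 0.0538 to 0.257). In the fit that left out the 3 libraries apart, Sgk1, Rgs17, Pdk4, Hmox1, P2ry2, Hmga1, Hmga1b and Dusp18 were at 1.52, 2.12, 1.32, 0.90, 0.49, 1.21, 1.51 and 0.29 (edgeR adjusted p = 0.109, 0.126, 0.0816, 0.311, 0.311, 0.0714, 0.0916 and 0.905).

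The 14 genes that stood lower with hM3Dq, and thus higher with rM3Ds, were divided by EGFP. In 7, hM3Dq lay below EGFP, at least 2 times as far from it as rM3Ds (Pgpep1, Pik3ip1, Mmp11, Mtss1, Osgin2, Gpr146 and Arvcf). This ratio did not put rM3Ds near EGFP in all 7. For Osgin2 the log2 fold changes over EGFP were -0.53 for hM3Dq and 0.26 for rM3Ds. In 5, the receptors lay on opposite sides of EGFP at more even distances (Cdc42ep1, Gadd45a, Id4, Plekhg3 and Gata2). In 2, rM3Ds stood above EGFP with hM3Dq near it (Usp2 and Cxcl5). The median log2 fold change over EGFP was -0.49 for hM3Dq and 0.31 for rM3Ds. Of the 14, 4 passed the test of hM3Dq against EGFP as lower (Gpr146, Mtss1, Mmp11 and Pik3ip1; 0 with the replicate number as a block) and 0 passed that of rM3Ds against EGFP, where 6 of the 14 had an unadjusted p below 0.05. No gene of the 14 was called in all 9 fits that left out 1 library. Gadd45a, called in 8 of the 9, came nearest.

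Cxcl5 (20311), a chemokine that attracts neutrophils, showed the largest difference of the 14 lower genes. It had 1.43, 2.54 and 2.44 CPM in the hM3Dq libraries, 9.92, 25.4 and 22.7 CPM in the rM3Ds libraries and 0.520, 3.09 and 2.07 CPM in the EGFP libraries. All rM3Ds libraries exceeded all others, and rM3Ds 1 was the lowest of them with rM3Ds 2 and rM3Ds 3 far higher. The log2 fold change was -3.17 ± 0.58 (SE, edgeR adjusted p = 0.038), and over EGFP it was 0.19 for hM3Dq and 3.36 for rM3Ds. For rM3Ds over EGFP the adjusted p of 0.2 did not pass. Without the libraries that stood apart the difference between receptors was -2.21 (edgeR adjusted p = 0.106), and 6 of the 9 libraries, left out singly, each ended the call (hM3Dq 1, hM3Dq 2, hM3Dq 3, rM3Ds 2, rM3Ds 3, EGFP 3; adjusted p = 0.0661 to 0.214). Of the other chemokine genes tested none passed, with Cxcl1 at -0.44 (edgeR adjusted p = 0.61) and Cxcl2 at 2.16 (edgeR adjusted p = 0.141). Cxcl5 was the 1 called gene of 21 inflammatory genes. Of that list 15 were above 0, with a median of 0.36, and 7 were higher and 2 lower at an unadjusted p below 0.05.

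Usp2 (53376), a ubiquitin-specific protease tied to the circadian clock, had 29.9, 27.1 and 24.2 CPM in the hM3Dq libraries, 42.6, 47.2 and 49.4 CPM in the rM3Ds libraries and 23.5, 29.9 and 29.8 CPM in the EGFP libraries. The hM3Dq and EGFP libraries overlapped and the rM3Ds libraries stood above both. It differed by -0.78 ± 0.13 (SE, edgeR adjusted p = 0.0285), with -0.04 for hM3Dq and 0.74 for rM3Ds over EGFP. Osgin2 (209212) had 20.2, 16.1 and 20.6 CPM in the hM3Dq libraries, 36.8, 29.7 and 32.4 CPM in the rM3Ds libraries and 24.03, 28.7 and 29.7 CPM in the EGFP libraries. Its hM3Dq libraries were below every other library, at -0.80 ± 0.13 (SE, edgeR adjusted p = 0.0177), and the difference was -0.96 (edgeR adjusted p = 0.0489) without the libraries that stood apart, the 1 of the 14 still called there. Gadd45a (13197), a stress gene that slows the cell cycle and acts in DNA repair, had 28.3, 29.9 and 29.2 CPM in the hM3Dq libraries, 43.5, 50.2 and 44.9 CPM in the rM3Ds libraries and 32.9, 39.4 and 36.5 CPM in the EGFP libraries. The 3 groups were graded with hM3Dq lowest and rM3Ds highest, at -0.67 ± 0.09 (SE, edgeR adjusted p = 0.00558). The calls of Usp2 and Osgin2 were lost when hM3Dq 1, hM3Dq 2, hM3Dq 3 and rM3Ds 3 were left out singly, and rM3Ds 2, EGFP 2 and EGFP 3 left out singly ended 1 or more of them (edgeR adjusted p = 0.0543 to 0.168). Gadd45a lost its call without hM3Dq 1 (edgeR adjusted p = 0.0574). Leaving out the 3 libraries apart, Usp2 and Gadd45a were at -0.66 and -0.58 (edgeR adjusted p = 0.431 and 0.126).

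Several of the lower genes followed the split of the libraries as well as the receptor. Id4, an inhibitor of helix-loop-helix factors made by neural precursors and astrocytes, had 31.7, 22.2 and 27.6 CPM in the hM3Dq libraries, 40.7, 58.9 and 54.2 CPM in the rM3Ds libraries and 45.2, 31.6 and 34.1 CPM in the EGFP libraries, at -0.92 ± 0.18 (SE, edgeR adjusted p = 0.0482). Plekhg3, which acts on small GTPases, had 31.5, 27.7 and 24.1 CPM in the hM3Dq libraries, 38.0, 59.8 and 64.3 CPM in the rM3Ds libraries and 40.9, 35.7 and 34.7 CPM in the EGFP libraries, at -0.96 ± 0.18 (SE, edgeR adjusted p = 0.0426). Gata2, a zinc finger factor, had 5.27, 4.84 and 3.92 CPM in the hM3Dq libraries, 8.04, 14.0 and 16.1 CPM in the rM3Ds libraries and 10.7, 7.04 and 7.78 CPM in the EGFP libraries, at -1.44 ± 0.27 (SE, edgeR adjusted p = 0.0426). In all of these rM3Ds 2 and rM3Ds 3 were the highest of the 9 libraries and EGFP 1 the highest EGFP library. Mtss1, which shapes membranes at the actin cortex, was at -0.72 ± 0.13 (SE, edgeR adjusted p = 0.0389), Gpr146, an orphan receptor, at -0.83 ± 0.16 (SE, edgeR adjusted p = 0.0397), and Arvcf, a catenin of cell junctions, at -0.92 ± 0.16 (SE, edgeR adjusted p = 0.0285). Each of these had its highest EGFP value in EGFP 1. The calls of Id4, Plekhg3, Gata2, Mtss1, Gpr146 and Arvcf were lost when hM3Dq 1, hM3Dq 2, hM3Dq 3, rM3Ds 2 and rM3Ds 3 were left out singly, and EGFP 2 and EGFP 3 left out singly ended 1 or more of them (edgeR adjusted p = 0.0543 to 0.246). When rM3Ds 2, rM3Ds 3 and EGFP 1 were left out, Id4, Plekhg3, Gata2, Mtss1, Gpr146 and Arvcf were at -0.58, -0.45, -0.79, -0.60, -0.62 and -0.89 (edgeR adjusted p = 0.593, 0.892, 0.755, 0.153, 0.293 and 0.129). With a term for these 3 libraries Id4, Plekhg3 and Gata2 were at -0.59, -0.62 and -0.92 (edgeR adjusted p = 0.121, 0.144 and 0.112).

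Set against rM3Ds 1 alone, the rM3Ds library that did not stand apart, the 77 higher genes had a median difference of 1.07, and against rM3Ds 2 and 3 one of 1.10. Since the genes were called with rM3Ds 1 in the fit and their groups did not overlap, the direction against it was fixed by the choice. Of the 77, 27 had the larger gap to it. The 14 lower genes had medians of -0.61 and -0.81, and 2 had the larger gap to rM3Ds 1. Without the 3 libraries that stood apart, where a single rM3Ds library is left and is assumed to vary like the other groups, 19 of the 77 and 1 of the 14 were called, with medians of 1.07 and -0.61. With a term for these libraries, which called 0.839% of all genes tested, 54 of the 77 and 3 of the 14 were called (Gadd45a, Usp2 and Osgin2). Of the 77, 26 were called in all 9 fits that left out 1 library, among them Fosl1, Ptgs2, Atf3, Dusp5, Nr4a1, Nr4a2, Fos, Junb, Clcf1, Sgk1 and Itga5. The 33 cell cycle genes, with a median of -1.54 and 0 called by edgeR, DESeq2 or limma-voom, had a median of 0.57 with the term, and 1 was lower at an unadjusted p below 0.05.

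**Figure D3:**
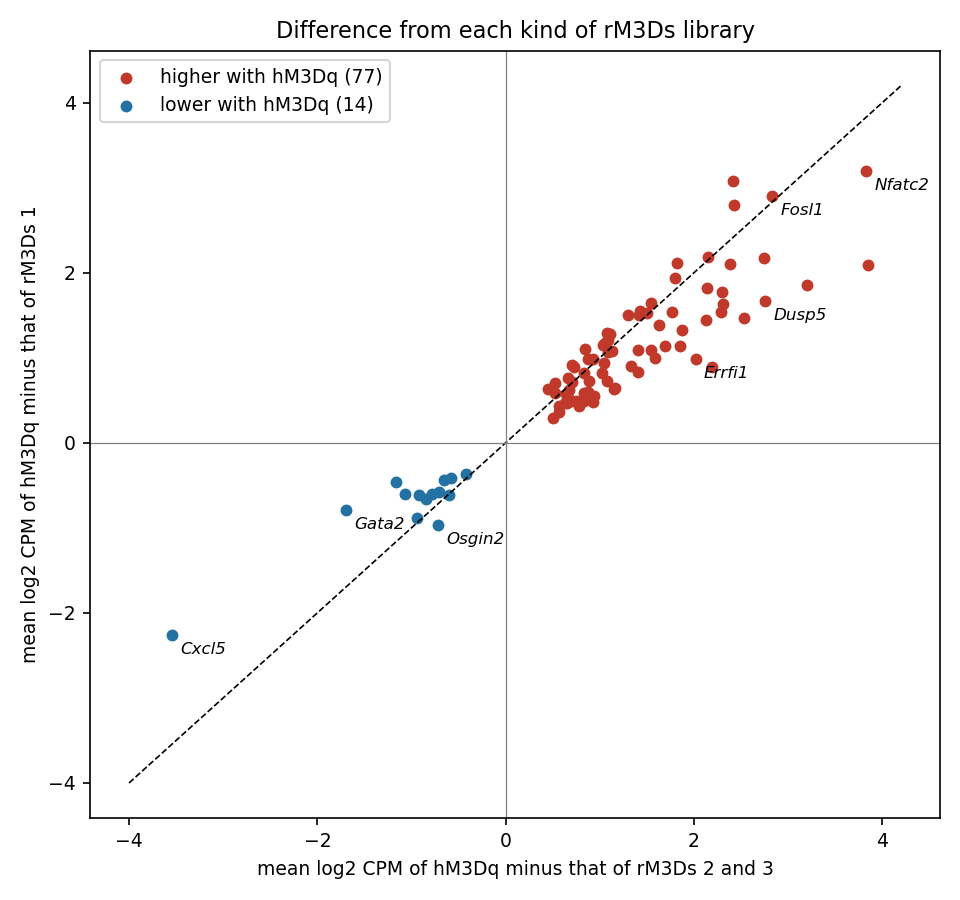
Mean log2 CPM of hM3Dq minus that of rM3Ds 2 and 3 on the horizontal axis, and minus that of rM3Ds 1 on the vertical axis, for the 91 genes that differed, with a dashed line of equal differences. The choice of genes fixes the same sign on both axes. Of the 14 lower genes 12 lie above the line, with the larger gap to rM3Ds 2 and 3.

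A group of genes was higher with hM3Dq than with EGFP without being called between receptors. Of the 103 genes called higher than EGFP with hM3Dq, 60 were also called higher than rM3Ds and 43 were not. With the replicate number as a block, 21 of the 43 passed against EGFP. The 43 were chosen on the same hM3Dq libraries, so a lean above 0 between receptors follows in part from the choice. The unadjusted 95% interval of hM3Dq over rM3Ds held 0 for 6 (Card19, Adamts1, Vgf, Txndc11, Cd14 and Gdnf). Adamts1, a protease of the extracellular matrix, averaged 62.0 ± 6.48 CPM with hM3Dq, 62.4 ± 8.00 CPM with rM3Ds and 28.6 ± 6.52 CPM with EGFP (SD, n = 3 each). The receptors' means lay close, with a difference of -0.01 and an interval of -0.44 to 0.42, and over EGFP the values were 1.11 for hM3Dq and 1.12 for rM3Ds, of which that of rM3Ds did not pass (edgeR adjusted p = 0.2). Gdnf, a survival factor for dopamine neurons, averaged 12.9 ± 1.97 CPM with hM3Dq, 7.77 ± 0.993 CPM with rM3Ds and 2.83 ± 1.47 CPM with EGFP (SD, n = 3 each), with an interval of -0.06 to 1.52. Myc, at 0.69 (edgeR adjusted p = 0.0509), and Lif, an IL-6 family cytokine, at 0.98 (edgeR adjusted p = 0.141), were also among the 43.

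The listed genes of the signalling chains themselves were not called. None of 17 tested members of the Gq chain (G protein subunits, phospholipases, inositol trisphosphate receptors and protein kinase C) was called, with a median of -0.07, and 3 were higher and 0 lower at an unadjusted p below 0.05, with 0 called by DESeq2 and limma-voom. None of 26 members of the Gs chain (adenylyl cyclases, protein kinase A subunits, CREB and its coactivators, phosphodiesterases) was called, with a median of 0.05, and 4 were higher and 4 lower at an unadjusted p below 0.05, with 1 called higher by DESeq2 and 0 by limma-voom. This list did not hold the phosphodiesterase gene Pde10a or the kinase gene Prkx, which were both called higher with hM3Dq. For Prkx, 7 of the 9 libraries, left out singly, each ended the call (edgeR adjusted p = 0.0661 to 0.233). Of 12 regulators of G protein signalling, Rgs17 was the 1 called, while the list's median was -0.29, 1 was higher and 3 lower at an unadjusted p below 0.05, and DESeq2 called 1 lower, Rgs12. Of 18 genes of the unfolded protein and integrated stress responses, Ddit3, the CHOP transcription factor, was the 1 called, at 0.74 (edgeR adjusted p = 0.0245), and of 14 heat shock genes 0 were called by edgeR or limma-voom, 3 were higher by DESeq2 and 3 were higher at an unadjusted p below 0.05. Of 26 matrix and protease genes 2 were higher, Itga5 among them, and 1 lower, Mmp11, at -0.59 (edgeR adjusted p = 0.0473). The calls of Ddit3 and Mmp11 were lost when hM3Dq 1, hM3Dq 2, hM3Dq 3, rM3Ds 2 and rM3Ds 3 were left out singly, and EGFP 2 and EGFP 3 left out singly ended 1 or more of them (edgeR adjusted p = 0.0728 to 0.234). With rM3Ds 2, rM3Ds 3 and EGFP 1 left out, Ddit3 and Mmp11 were at 0.58 and -0.44 (edgeR adjusted p = 0.397 and 0.825).

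**Figure D4:**
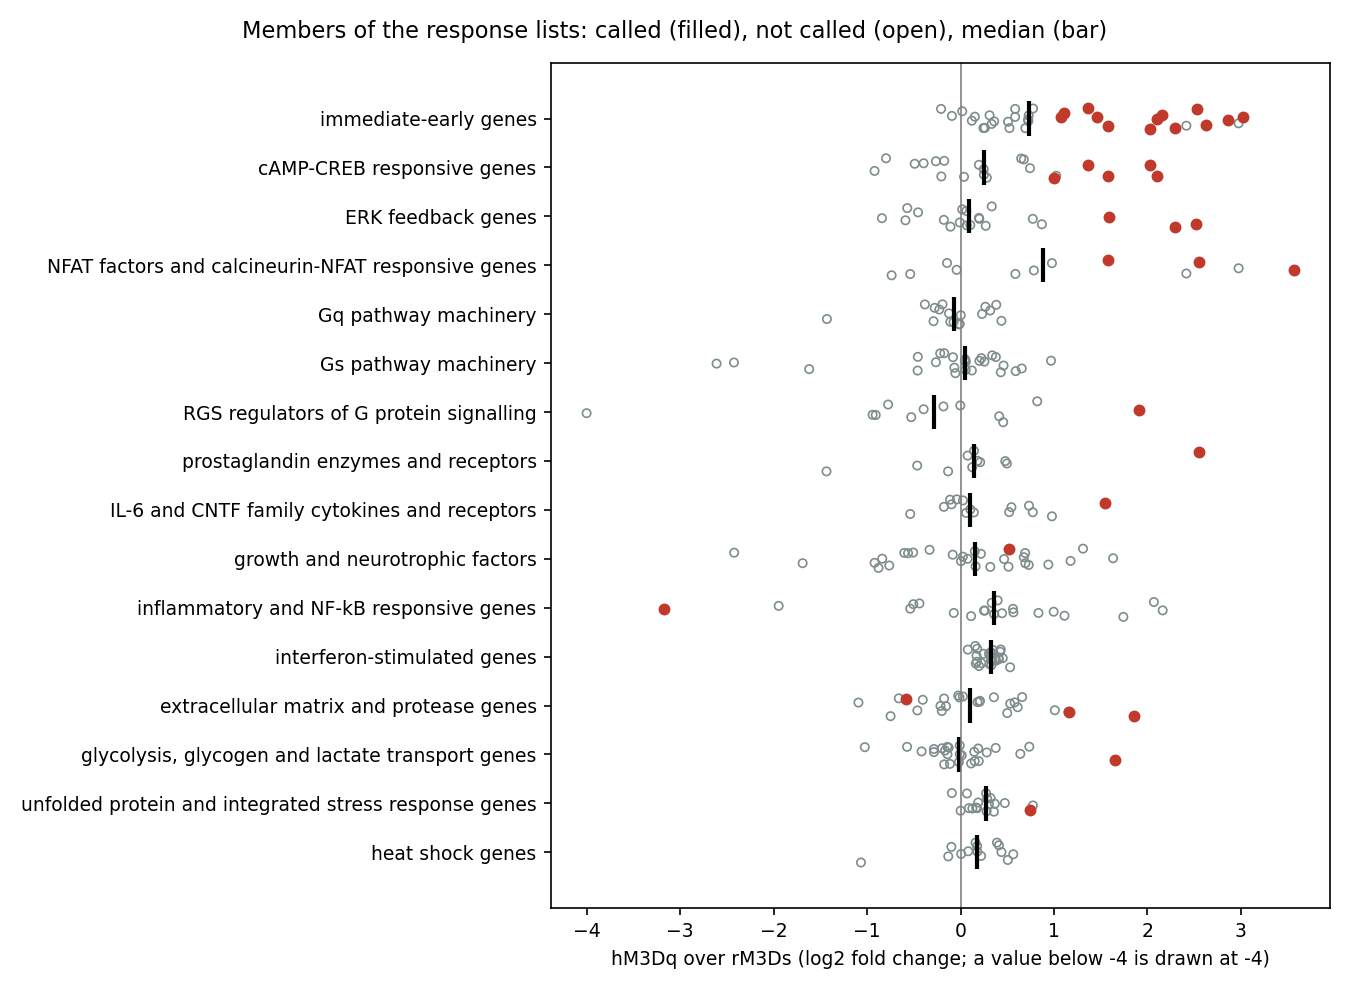
Log2 fold change of hM3Dq over rM3Ds of every tested member of 16 response lists, one row a list, with called genes filled, others open and the list's median as a bar. A value below -4 is drawn at -4. Called genes lie to the right in most lists, with the exceptions of Mmp11 and Cxcl5, and the immediate-early and NFAT lists have the highest medians, 0.73 and 0.88.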

How the data were processed

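RNA sequencing measured poly-A RNA of 18 libraries, of which the 12 at 90 min were fitted. Per the submitters' processing notes, the tools were fastp 0.23.4 and Salmon 1.8.0 and the build was mm39, with no role given. The authors deposited estimated counts per gene, not normalised (55.9% of the values at 90 min were not whole numbers). How transcripts were summed to genes, and whether strand was used, is not given in the sources used here, so near-identical copies and overlapping or antisense genes are uncertain. Symbols came from a reference table by Entrez identifier, which matched 21978 of 22078. Some genes are not analysed here.

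Estimated counts were rounded and tested with edgeR 4.0.16 (R 4.3.3): TMM normalisation, the default low-count filter, robust quasi-likelihood fit of the 12 libraries by group with 8 residual degrees of freedom, so that the 4 groups share 1 estimate of the spread, and Benjamini-Hochberg adjustment over all 13584 genes tested. A gene is called at an adjusted p below 0.05. CPM are scaled by TMM, except sums of markers, the part of Flt1 in them and the levels of Gfap and S100b, which use the library's total alone. In a library 3 counts came to 0.119 to 0.187 CPM. Intervals of fold changes are unadjusted 95% intervals. Deviations from the group means of same-numbered libraries correlated at -0.09, -0.08 and -0.20 for hM3Dq and rM3Ds, and at -0.76, -0.57 and -0.57 for rM3Ds and EGFP, so the numbers were not taken to pair them. For hM3Dq and EGFP they correlated at 0.133, 0.162 and 0.123, each above 0.1, so the fit with the number as a block is given beside that comparison, although the labels do not say what the number marks. The fit was tested on simulated data. Apart from genes changed on purpose in hM3Dq, the simulated libraries shared a common mean for each gene. They did not hold the split of the real libraries, so the simulation could not test the fit under it. Alternatives were DESeq2 1.42.0, limma-voom (limma 3.58.1), other normalisation, filters and sets of libraries, a replicate block, and leaving out each library.

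The comparison, the 16 response lists, the 8 marker lists and the tests were chosen with earlier results of these data known. Named genes were Fos, Fosb, Egr1, Nr4a1, Nr4a2, Nr4a3, Vgf, Crem, Rgs2, Ptgs2, Gfap and Chrm3. Added to these were the top 10 and bottom 10 called genes by fold change, where mean log2 CPM reached 1 and the groups did not overlap, and from each response list with at least 2 called members the 2 of smallest p. Genes outside this rule were picked with their values in view. Promoters are RefSeq's of GRCm38.p6, another build than that of the counts, so no gene coordinates are given besides theirs.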

Additional observations from a re-analysis of the deposited data

How the results depend on the processing

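The 31 named genes kept direction and side of the threshold in 463 of their recomputed values, kept direction but lost the call in 150, and reversed in 7, all 7 of genes that were not called. Chrm3 was at 0.25 without rM3Ds 1, in a range of -0.65 to 0.25 over single libraries left out. Gfap was at 0.0912 with a term for the libraries that stood apart, and Rgs2 at 0.0860 without these libraries. Vgf was at -0.13 without hM3Dq 1 and -0.04 without rM3Ds 2, in a range of -0.13 to 0.12, at -0.0249 without the libraries that stood apart and at -0.10 with the term. For the reversals and for the counts below the cause was not tested.

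Between receptors, 91 genes were called, 77 higher and 14 lower. DESeq2 called 463, 260 higher and 203 lower, and limma-voom called 81 higher and 9 lower. A fit of the 6 hM3Dq and rM3Ds libraries alone called 138, with 118 higher. Without the 3 libraries that stood apart, 25 were called, 22 higher and 3 lower. Leaving out 1 library each gave 28 to 590 called, 26 to 278 higher and 0 to 312 lower. The total was 590 without rM3Ds 1, where both rM3Ds libraries left stood apart, 215 without EGFP 1, and 28 without rM3Ds 2.

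Between receptors the replicate numbers were not taken to pair libraries. The correlations behind this choice include the libraries that stood apart, so they cannot exclude a pairing. With the number as a replicate block, 53 were called, 49 higher and 4 lower. With the block and the 6 libraries alone, an alternative chosen after seeing the data, 42 were called, 38 higher and 4 lower.

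Against EGFP, hM3Dq called 107 genes, and 66 with the block, 206 with the term, 232 by DESeq2 and 50 to 122 without 1 library. rM3Ds called 2, and 4 with the block, 4 without hM4Di, 0 without the libraries that stood apart, 55 by DESeq2 and 2 to 115 without 1 library, 115 being without rM3Ds 1. The 67 genes placed as higher with hM3Dq were 44 with the block, 22 without the libraries that stood apart, 187 by DESeq2 and 24 to 106 without 1 library. The 7 placed as lower with hM3Dq were 4 with no low-count filter, 4 without hM4Di, 2 with the block, 2 without the libraries that stood apart, 4 by limma-voom, 56 by DESeq2 and 0 to 19 without 1 library. The 2 placed as higher with rM3Ds were 4 with no low-count filter, 4 at a CPM of at least 1 in 3 libraries, 1 with the block, 0 without the libraries that stood apart, 1 with the term, 1 by limma-voom, 65 by DESeq2 and 0 to 176 without 1 library, 176 being without rM3Ds 1. In the 150 bases before the start alone, 0% of the 15 promoters of lower genes held TGACGT and 0% held TGANTCA. For promoters of tested genes these shares were 7.56% and 2.90%. In the same window GGAAA was in 28.9% of promoters of higher genes and in 35.6% of those of tested genes.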

Other observations

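Interferon-stimulated genes, which encode antiviral proteins, leaned one way without a call. All 25 tested had a log2 fold change above 0 between hM3Dq and rM3Ds, with a median of 0.33 and a range of 0.08 to 0.53. None passed edgeR's test, DESeq2 or limma-voom, and 4 were higher at an unadjusted p below 0.05. Over EGFP the list's median was 0.09 for hM3Dq and -0.24 for rM3Ds. With a term for the libraries that stood apart the median between receptors was 0.28, and without these libraries 0.23.

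The genes that separated the receptors were set beside 2 further groups. With hM4Di, a Gi-coupled receptor stimulated in the same way, the 77 genes higher with hM3Dq had a median log2 fold change over EGFP of 0.12, against -0.01 over all genes tested, and hM4Di lay nearer EGFP than hM3Dq in 75 of the 77. The 14 lower genes had a median of -0.01, and hM4Di lay nearer EGFP in 12. Both counts follow in large part from the choice, since the genes were chosen on their high or low level with hM3Dq. The hM4Di mean lay above that of rM3Ds in 46 of the 77 and in 0 of the 14. The genes were chosen on their level with rM3Ds too, so these counts also follow in part from the choice. The same share over all genes tested was not computed. In hM3Dq cells 3 days after the stimulation, set against mCherry cells, 71 of the 77 and all 14 lower genes were tested, and the medians were -0.09 and -0.05, against -0.01 over all. No gene was called there of 12807 tested by edgeR, and 15 of the 71 and 3 of the 14 had an unadjusted p below 0.05, against 1540 of all genes tested.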
